A study of Mus musculus with 24 samples.

Results

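The genes described here are 10 chemokines and stromal cytokines, Ccl2, Ccl7, Ccl5, Cxcl1, Cxcl5, Cxcl12, Cxcl14, Csf1, Il6 and Lif, chosen by name from 24825 genes listed in each library. RNA-seq was done on an immortalised line of mouse inguinal stromal vascular fraction cells, the non-adipocyte cells of the subcutaneous fat pad, taken from Nfia flox/flox mice and carrying SV40 large T antigen. Ctrl cells received an empty retrovirus, and the other cell types received Cre recombinase, alone (Cre), with FLAG-tagged full-length NFIA (Cre + NFIA), or with a tagged NFIA from which a proline-rich stretch near the C terminus was deleted (Cre + NFIA Δpro#3). Each was sampled at day 0, at confluence, and at day 7 of differentiation with 3 replicates, giving 24 libraries in 8 groups. NFIA is a DNA-binding transcription factor, and the 2 transgenes were driven by a retrovirus, so their levels are not those of the endogenous gene. The differentiation medium of the first 2 days held isobutylmethylxanthine, indomethacin and dexamethasone beside insulin, T3 and rosiglitazone, and the last 3 agents stayed in the medium afterwards. All cell types received it, so day and medium cannot be told apart.

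Chemokines are small secreted proteins that steer the movement of leukocytes along a gradient. Ccl2 and Ccl7 act on monocytes through the receptor Ccr2, Ccl5 acts on T cells and macrophages, and Cxcl1 and Cxcl5 draw neutrophils through Cxcr2. Cxcl12 acts through Cxcr4 and Ackr3 and retains haematopoietic cells in the marrow stroma. Cxcl14 is a chemokine made by many epithelia and by brown fat. Csf1 is the growth factor of macrophages, and Il6 and Lif signal through the shared receptor chain Il6st to STAT3. In fat tissue, precursor and fibroblast-like cells are a known source of several of these proteins, and NF-κB, AP-1 and C/EBP proteins are textbook regulators of inflammatory members such as Il6 and Cxcl1.

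In the annotation of the mouse genome build used for the counts (mm9, NCBIM37), Ccl2 (chr11:81849073-81850955) and Ccl7 (chr11:81859214-81861027) lie 8.3 kb apart on the plus strand. Ccl5 (chr11:83339280-83344020, minus strand) and Lif (chr11:4157560-4172517) lie farther away on the same chromosome. Cxcl5 (chr5:91188325-91190651) and Cxcl1 (chr5:91320267-91322141) stand 129.6 kb apart in the CXC cluster, and Il6 (chr5:30339701-30346508) is elsewhere on chromosome 5. The others are Cxcl12 (chr6:117118553-117131385), Cxcl14 (chr13:56390008-56397912, minus strand) and Csf1 (chr3:107543966-107563387, minus strand). Each value is the sum over the exons of a gene. Ccl2 overlaps Gm17268 on the opposite strand, and the counting was by strand.

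Upstream sequence is shown for the 3 members whose promoters hold letters of an NF-κB site, so they were picked by that match. NF-κB family genes were among the 3 genes nearest to Cxcl1, Cxcl5 and Ccl2 in pattern over the 24 libraries (given later). Such likeness is mostly the difference between days. None was among the 3 nearest to Il6 or Csf1, and Ccl2 and Cxcl5 had no promoter sequence here. RefSeq promoter sequences on build GRCm38.p6 were matched for 6 of the 10 members, Cxcl1, Cxcl12, Cxcl14, Csf1, Il6 and Lif, and the 250 bases before the start site were searched on both strands. The letters searched were GGG and TTTCC with 2 bases of any kind between (κB), TGANTCA (AP-1), TTGNNCAA (C/EBP), TTGGCA (a single NFI site) and TTGGC and GCCAA with 5 bases of any kind between (a paired NFI site), chosen with these genes in view. Capitals in the following lines mark matches. Cxcl1 is chr5:90890995-90891244 on the plus strand, Il6 is chr5:30012864-30013113 on the plus strand and Csf1 is chr3:107760470-107760719 on the minus strand, each printed 5′ to 3′ along its gene.
Cxcl1: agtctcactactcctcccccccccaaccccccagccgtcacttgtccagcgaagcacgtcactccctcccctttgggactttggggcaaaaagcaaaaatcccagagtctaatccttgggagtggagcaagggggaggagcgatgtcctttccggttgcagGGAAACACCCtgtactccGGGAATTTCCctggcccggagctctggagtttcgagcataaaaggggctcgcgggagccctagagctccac
Il6: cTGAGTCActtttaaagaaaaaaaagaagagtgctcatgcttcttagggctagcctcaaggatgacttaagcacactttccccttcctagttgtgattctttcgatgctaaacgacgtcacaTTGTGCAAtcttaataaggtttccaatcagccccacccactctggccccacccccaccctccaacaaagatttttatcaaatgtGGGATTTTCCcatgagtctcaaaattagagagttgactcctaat
Csf1: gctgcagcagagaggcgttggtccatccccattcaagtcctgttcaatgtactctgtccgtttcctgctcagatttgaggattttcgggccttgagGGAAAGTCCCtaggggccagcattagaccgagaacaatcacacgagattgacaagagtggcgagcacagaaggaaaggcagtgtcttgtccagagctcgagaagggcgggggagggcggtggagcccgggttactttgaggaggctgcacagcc

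Cxcl1 held κB letters at 2 places, GGAAACACCC from base -89 and GGGAATTTCC from base -71, where the last base printed is -1. Il6 held GGGATTTTCC from -44, TGAGTCA from -249 and TTGTGCAA from -128, and Csf1 held GGAAAGTCCC from -154. Of 32851 promoters of this length, 1.41% held the κB letters, 6.75% the AP-1 letters and 5.65% the C/EBP letters. Lif, not printed, held AP-1 letters from -228 and none of the others, and Cxcl12 and Cxcl14 held no match to any of the 5. No single or paired NFI site was matched in the 6 windows, and 12.3% and 0.0365% of all promoters held these. A match is a run of letters in a short window and says nothing about binding.

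Library totals were 7.73 to 13.09 M reads at day 0 and 9.15 to 14.62 M at day 7, with the lowest in the Cre-labelled day 0 group. Nfia, the targeted gene, was at 6.23, 6.75 and 6.43 FPKM (fragments per kilobase of gene length, scaled to the library total) in ctrl at day 0 and 6.81, 5.34 and 6.49 in the libraries labelled Cre. The day 7 values were 9.81, 9.15 and 9.70 for ctrl and 10.7, 10.1 and 9.49 for those labelled Cre, so the level was not lower there. The gene value sums all exons, of which the floxed exon 2 is one, so it does not check the label. By other assays, the study reported efficient recombination (PCR of genomic DNA) and an almost complete loss of NFIA mRNA and protein with Cre. In Cre + NFIA, Nfia lay between 69.7 and 74.9 FPKM at day 0 and between 83.9 and 97.1 at day 7, and in Cre + NFIA Δpro#3 between 59.7 and 61.7 and between 95.0 and 111, with transgene reads included. The precursor markers Ly6a, Cd34, Pdgfra and Pdgfrb reached 1968, 244, 138 and 97.4 FPKM, each in its highest library of either day. Of the same list of 12, Fn1, Col1a1, Col1a2 and Thy1 reached 2052, 1339, 935 and 109 FPKM. Dcn reached 24.1 FPKM, Pi16 2.40 and Lum 1.10, while Dpp4 had at most 6 reads. A list of 10 adipocyte markers summed to 72.5 to 118 FPKM in the day 0 libraries. At day 7 it summed to 22230 to 25738 FPKM in ctrl, 4446 to 9527 in Cre, 21183 to 21374 in Cre + NFIA and 851 to 2158 in Cre + NFIA Δpro#3.

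At day 0 Ccl2 was the highest of the members, with group means of 1203 to 1784 FPKM, and Ccl7 followed with 733 to 1020. Csf1, at 389 to 520, Cxcl1, at 242 to 316, and Cxcl5, at 200 to 316, formed a middle tier with Cxcl12, at 160 to 249, and Ccl5, at 128 to 202. Il6, at 8.12 to 11.1 FPKM, and Lif, at 1.84 to 4.23, were low. Cxcl14 was between 0 and 0.875 FPKM in the 24 libraries, with at most 18 reads, and did not pass the filter of 1 FPKM in at least 3 libraries, so 9 of the 10 members were tested. The 10 members together took 0.618% ± 0.018 (SD, n = 3) of library reads in ctrl, 0.656% ± 0.0098 in Cre, 0.570% ± 0.0159 in Cre + NFIA and 0.607% ± 0.0132 in Cre + NFIA Δpro#3.

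**Figure D1:**
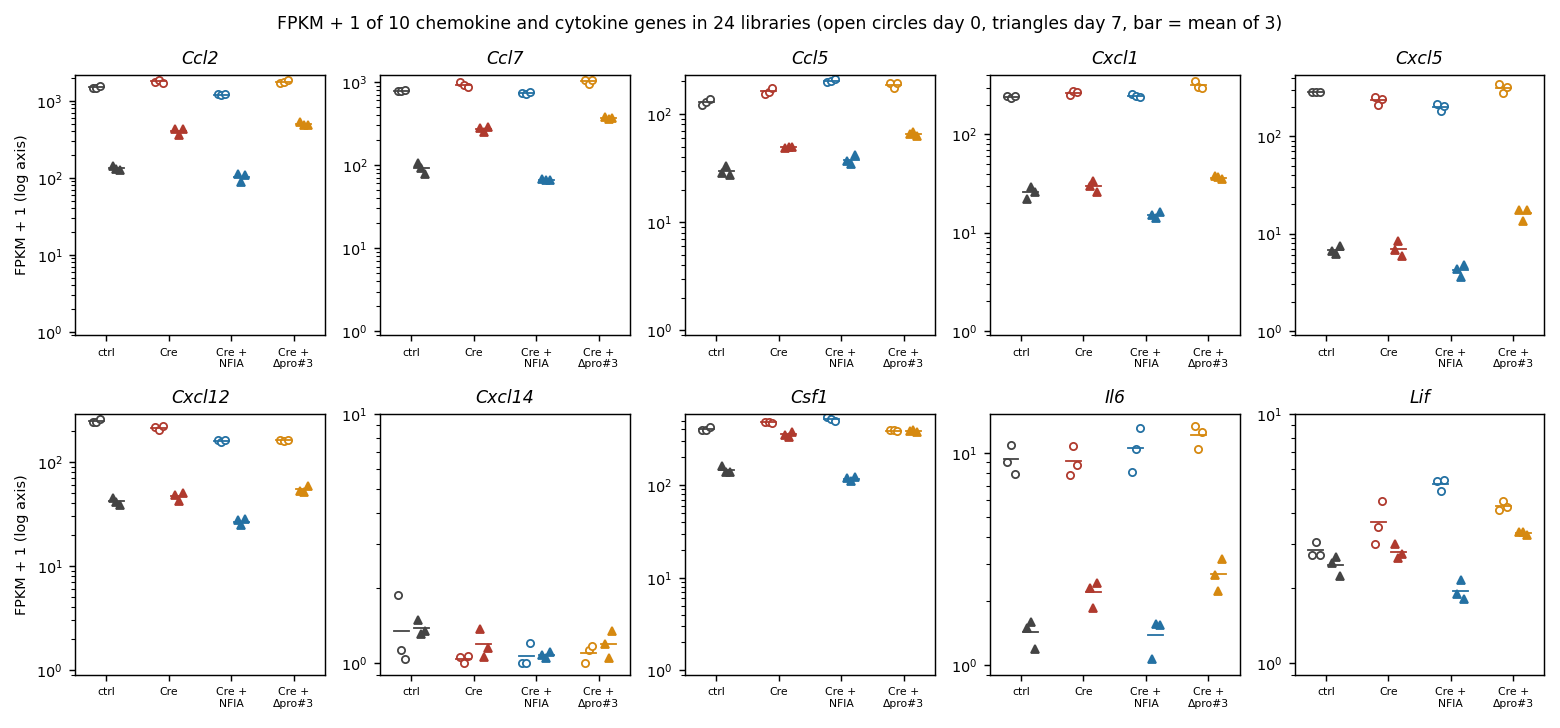
FPKM + 1 (log axis) of each of the 10 members in the 24 libraries, by cell type, with open circles for day 0, filled triangles for day 7 and bars for the mean of 3. Except for Cxcl14, and for Csf1 in Cre + NFIA Δpro#3, each day 7 library lies below each day 0 library of its own cell type. Lif in Cre does so narrowly, at 2.018 against 2.019 FPKM. At day 7 Ccl2, Ccl7 and Csf1 are higher in Cre and Cre + NFIA Δpro#3 than in ctrl and Cre + NFIA.

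The first comparison asked how the members moved over differentiation. In ctrl cells 8 of the 9 tested members fell from day 0 to day 7 and none rose (limma, Benjamini-Hochberg adjusted p under 0.05). Over all genes tested, 38.1% were lower and 32.9% higher (34.2% and 37.1% when scaled by median-of-ratios factors). The median member difference was -2.71 on the log2(FPKM + 1) scale, and the median over all genes tested was -0.05. At least 3-fold falls were seen in 7 members and in 2.86% of genes. In bulk RNA, fewer cells of a type and less RNA per cell cannot be told apart.

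Cxcl5, a neutrophil chemokine, had the largest fall of the members. Its ctrl values were 285, 283 and 284 FPKM at day 0 and 5.66, 5.12 and 6.50 at day 7, a log2 difference of -5.40 ± 0.13 (SE, adjusted p = 1.5e-17). Cxcl1, its neighbour in the CXC cluster, went from 245, 235 and 247 FPKM to 21.1, 28.0 and 24.9, a difference of -3.25 ± 0.09 (adjusted p = 8.6e-17). The day 0 and day 7 libraries of both genes stood far apart. Ccl2, the main monocyte chemokine, went from 1470, 1469 and 1555 FPKM to 141, 128 and 124, a difference of -3.50 ± 0.09 (adjusted p = 2.1e-17). The differences were -3.10 for Ccl7, -2.71 for Il6, -2.58 for Cxcl12 and -2.13 for Ccl5. Csf1 had a difference of -1.46 ± 0.06, from 397, 392 and 420 FPKM to 161, 140 and 137. Lif, at 1.72, 2.07 and 1.73 FPKM before and 1.52, 1.67 and 1.24 after, differed by -0.20 ± 0.11 (adjusted p = 0.13).

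In Cre + NFIA cells all 9 tested members fell, with differences from -1.43 (Lif) to -5.59 (Cxcl5). Here 38.3% of genes tested were lower and 31.8% higher (34.1% and 35.7% when scaled by median-of-ratios factors). At least 3-fold falls were seen in 8 members and in 3.31% of genes. In the libraries labelled Cre all 9 also fell, where 21.6% of genes were lower and 30.0% higher (29.8% and 22.7% with quantile normalization), with -2.13 for Ccl2, -1.77 for Ccl7 and -0.44 for Csf1, and the call of Lif, at -0.38, was lost without Cre day 0 replicate 3, at -0.22. There 7 members and 0.467% of genes fell at least 3-fold. In Cre + NFIA Δpro#3 cells 8 fell, where 17.0% of genes were lower and 24.5% higher (20.7% and 19.1% with quantile normalization), and 4 fell at least 3-fold, as 0.316% of genes did. The 4 with that fall were Cxcl5, Cxcl1, Il6 and Ccl2. Csf1 in these cells was at 393, 391 and 383 FPKM at day 0 and at 385, 395 and 372 at day 7, a difference of -0.02 ± 0.06 (adjusted p = 0.83), and the libraries of the 2 days overlapped. Lif fell by 0.36 there (adjusted p = 0.015), a call lost without the day 0 replicate 2, at -0.33.

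**Figure D2:**
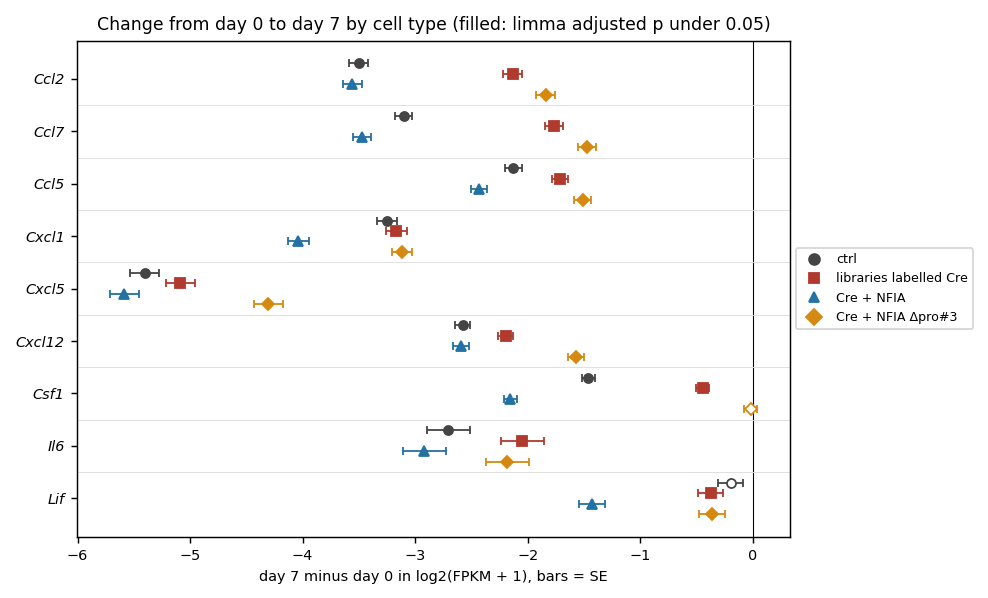
Day 7 minus day 0 in log2(FPKM + 1) for the 9 tested members, with the limma SE as bars, 1 symbol per cell type and filled symbols for an adjusted p under 0.05. Cxcl5 runs from -5.59 to -4.31 in the 4 cell types, while Csf1 runs from -2.16 in Cre + NFIA to -0.02 in Cre + NFIA Δpro#3.

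Markers moved over the same days. The 9 tested adipocyte markers rose in each of the 4 cell types. The summed level of 12 precursor and fibroblast markers went from a median of 5733 FPKM to 1708 in ctrl, from 5411 to 3178 in Cre, from 5481 to 1408 in Cre + NFIA and from 4978 to 4368 in Cre + NFIA Δpro#3. Of the 10 tested markers on that list, 8 fell and 1 rose in ctrl, 7 fell and 2 rose in Cre, and 8 fell and 1 rose in Cre + NFIA. In Cre + NFIA Δpro#3, 2 fell and 3 rose, with a median difference of 0.01, where 17.0% of genes tested were lower and 24.5% higher. The shares of all genes in the other cell types are those given for the members. The part of this shift in the fall of the members was not tested.

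At day 7, cells labelled Cre were set against ctrl, which asks how the members stood where Nfia exon 2 was the target of recombination. Of the 9 tested members, 5 were higher and none lower, namely Ccl2, Ccl7, Ccl5, Csf1 and Il6, where 36.1% of all genes tested were higher and 22.7% lower (26.9% and 31.2% when scaled by median-of-ratios factors, which moved the median of all genes by -0.11). The median member difference was 0.63, and that of all genes tested 0.09. Ccl2 was at 435, 356 and 429 FPKM in the libraries labelled Cre, above each ctrl library, and the difference was 1.62 ± 0.10 (adjusted p = 5.5e-07), the only one of the members that passed 3-fold with 0.237% of genes. Ccl7 was at 276, 251 and 281 FPKM against 103, 91.8 and 76.3, a difference of 1.57 ± 0.09 (adjusted p = 2.9e-07). The ratio of Ccl2 to Ccl7 was 1.47 ± 0.14 (SD, n = 3) in ctrl and 1.51 ± 0.081 in Cre, and the groups overlapped (two-sided exact permutation p = 0.7, adjusted over 30 ratio comparisons 0.778). With 3 against 3 the smallest p is 0.1, so this test could not pass 0.05 and does not show that the ratio was stable. Csf1 was at 350, 333 and 373 FPKM against 161, 140 and 137, a difference of 1.27 ± 0.07 (adjusted p = 2.7e-07).

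Ccl5 was at 47.7, 48.8 and 48.3 FPKM in the libraries labelled Cre and at 27.8, 32.3 and 26.0 in ctrl, a difference of 0.74 ± 0.08 (adjusted p = 1.3e-05). Il6 was at 1.32, 0.862 and 1.43 FPKM against 0.500, 0.584 and 0.186, with at most 18 reads in any of the 6 libraries, and its difference of 0.63 ± 0.19 (adjusted p = 0.013) was not called without ctrl replicate 3, at 0.51. Il6 passed the filter mostly through its day 0 libraries. The neutrophil chemokines and Cxcl12 were not called. Cxcl1 was at 29.1, 32.5 and 24.7 FPKM against 21.1, 28.0 and 24.9 (0.21 ± 0.11, adjusted p = 0.11), and passed without ctrl replicate 2, at 0.30, or without Cre replicate 3, at 0.31. Cxcl5, at 5.74, 7.39 and 4.81 FPKM against 5.66, 5.12 and 6.50, differed by 0.03 ± 0.15 (adjusted p = 0.86), and Cxcl12 by 0.16 ± 0.08 (adjusted p = 0.12), called without Cre replicate 2, at 0.23. Lif differed by 0.18 ± 0.10 (adjusted p = 0.16). The ratio of Ccl2 to Cxcl1 was 5.42 ± 1.12 (SD, n = 3) in ctrl and 14.4 ± 3.24 in Cre. The exact permutation p of that ratio was 0.1, the smallest that 3 against 3 allows, and 0.167 after adjustment.

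**Figure D3:**
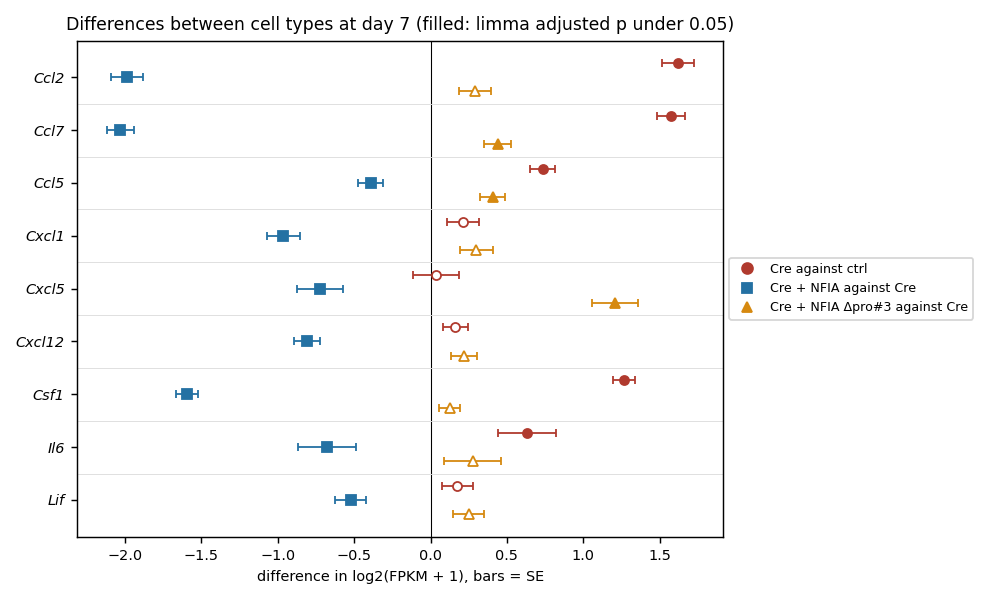
Differences in log2(FPKM + 1) at day 7 for the 9 tested members, with the limma SE as bars and filled symbols for an adjusted p under 0.05. Each member is lower in Cre + NFIA than in Cre, with differences from -0.39 (Ccl5) to -2.03 (Ccl7), and none is lower in Cre + NFIA Δpro#3 than in Cre.

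With full-length NFIA returned, the 9 tested members were called lower than in the libraries labelled Cre at day 7. Of all genes tested, 35.9% were lower and 27.0% higher (29.1% and 33.7% when scaled by median-of-ratios factors). The median member difference was -0.81, against -0.06 over all genes tested. Ccl2 was at 112, 86.2 and 107 FPKM, a difference of -1.99 ± 0.10 (adjusted p = 3.2e-08), and Ccl7 at 66.4, 64.3 and 64.7, a difference of -2.03 ± 0.09 (adjusted p = 1.1e-08). Csf1 was at 119, 109 and 121 FPKM and differed by -1.59 ± 0.07 (adjusted p = 1.0e-08). These 3 were also at least 3-fold lower, as 1.50% of genes were. Cxcl1, at 14.3, 13.0 and 15.3 FPKM, differed by -0.96 ± 0.11 (adjusted p = 9.1e-06), and Cxcl12, at 26.4, 23.5 and 27.2, by -0.81 ± 0.08 (adjusted p = 4.9e-06). Cxcl5 at 3.28, 2.62 and 3.72 FPKM differed by -0.72 ± 0.15 (adjusted p = 0.0013). Il6 differed by -0.68, Lif by -0.52 and Ccl5, at 36.0, 33.4 and 40.6 FPKM, by -0.39 ± 0.08 (adjusted p = 0.0012).

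Against ctrl at day 7, Cre + NFIA libraries were lower for 7 members and higher for 1, where 9.15% of genes tested were lower and 8.81% higher. Ccl5 was the one above ctrl, by 0.34 ± 0.08 (adjusted p = 0.013), a call lost without ctrl replicate 3, at 0.28, or without Cre + NFIA replicate 3, at 0.27. The differences were -0.75 for Cxcl1, -0.69 for Cxcl5 and -0.65 for Cxcl12. Smaller differences of -0.46 for Ccl7, -0.37 for Ccl2, -0.35 for Lif and -0.33 for Csf1 also passed. That of Ccl2 was lost without Cre + NFIA replicate 2, at -0.26, and without ctrl replicate 1, at -0.32, or 2, at -0.39. That of Lif was lost without ctrl replicate 1, at -0.33, or 2, at -0.29, and without Cre + NFIA replicate 1, at -0.33, or 3, at -0.29. Il6 differed by -0.05 ± 0.19 (adjusted p = 0.90).

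In Cre + NFIA Δpro#3, 3 members, Cxcl5, Ccl7 and Ccl5, were higher than in Cre at day 7 and none lower. The shares over all genes tested were 7.70% higher and 10.0% lower (10.2% and 9.72% with quantile normalization). Cxcl5 was at 16.3, 12.4 and 16.5 FPKM, above each library of the other cell types at day 7, a difference from Cre of 1.21 ± 0.15 (adjusted p = 0.00059). Ccl7 was at 379, 355 and 363 FPKM (0.44 ± 0.09, adjusted p = 0.0059) and Ccl5 at 64.6, 67.1 and 61.6 (0.41 ± 0.08, adjusted p = 0.0053). Ccl2, at 530, 479 and 478 FPKM, lay above each library labelled Cre but was not called (0.29 ± 0.10, adjusted p = 0.082), except without Cre + NFIA replicate 2, at 0.29. Cxcl1 differed by 0.30 (adjusted p = 0.079) and passed without ctrl replicate 1, at 0.30, or without Cre replicate 2, at 0.39. Csf1 at 385, 395 and 372 FPKM differed by 0.13 ± 0.07 (adjusted p = 0.25). The ratio of Cxcl1 to Cxcl5 was 2.39 ± 0.41 (SD, n = 3) in these cells and 4.87 ± 0.41 in Cre, and the groups did not overlap (exact permutation p = 0.1, the smallest possible, 0.167 after adjustment).

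Between the 2 transgenes at day 7, the 9 tested members were called higher with Δpro#3 than with full-length NFIA. Of all genes tested, 40.4% were higher and 28.9% lower (33% and 35% when scaled by median-of-ratios factors). The differences were 2.47 for Ccl7, 2.28 for Ccl2, 1.93 for Cxcl5, 1.72 for Csf1, 1.26 for Cxcl1, 1.03 for Cxcl12, 0.95 for Il6, 0.80 for Ccl5 and 0.77 for Lif. The first 4 were at least 3-fold, as 2.33% of genes were. The comparisons at day 7 share libraries, so their directions are not separate evidence. The 10 members took 0.117% ± 0.0094 (SD, n = 3) of reads in ctrl, 0.250% ± 0.0153 in Cre, 0.0874% ± 0.0055 in Cre + NFIA and 0.288% ± 0.0035 in Cre + NFIA Δpro#3.

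**Figure D4:**
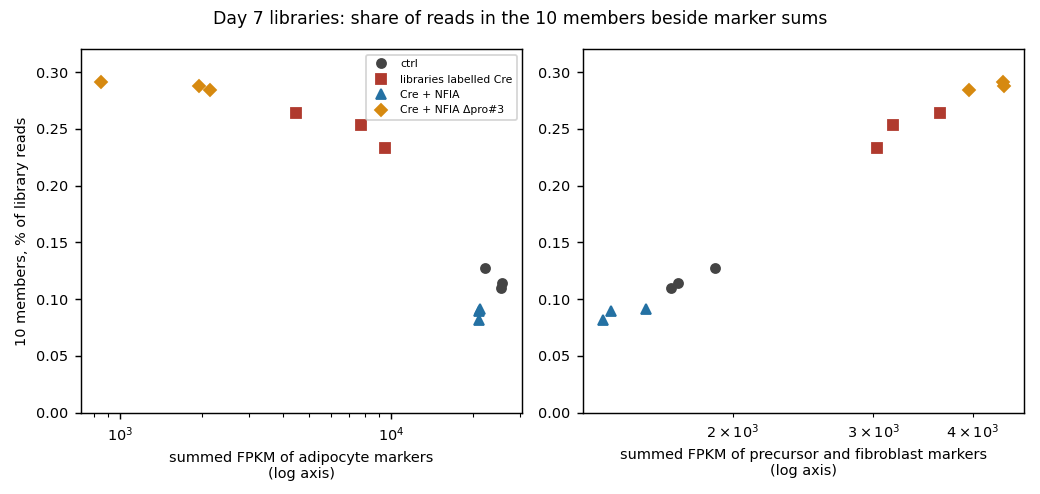
Percent of library reads in the 10 members for each of the 12 day 7 libraries against the summed FPKM (log axis) of 10 adipocyte markers (left) and of 12 precursor and fibroblast markers (right), with 1 symbol per cell type. The libraries with 21183 to 25738 FPKM of adipocyte markers, ctrl and Cre + NFIA, have the lowest member shares, and those with 851 to 2158 FPKM, Cre + NFIA Δpro#3, have the highest.

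Adipocyte and precursor markers also differed between the cell types at day 7. The 9 tested adipocyte markers were lower in Cre than in ctrl, higher in Cre + NFIA than in Cre and lower in Cre + NFIA Δpro#3 than in Cre. Of the 10 tested precursor and fibroblast markers, 9 were higher and 1 lower in Cre than in ctrl, 9 were lower in Cre + NFIA than in Cre, and 2 were higher in Cre + NFIA Δpro#3 than in Cre. Over all genes tested, 36.1% were higher and 22.7% lower in Cre than in ctrl. The shares were 27.0% higher and 35.9% lower in Cre + NFIA against Cre, and 7.70% higher and 10.0% lower in Cre + NFIA Δpro#3 against Cre. In Cre + NFIA against ctrl they were 8.81% higher and 9.15% lower. In Cre + NFIA against ctrl, where 7 members were lower and 1 higher, none of the 9 adipocyte markers was called by limma (median difference 0.01, none at an unadjusted p under 0.05), and 6 of the 10 precursor and fibroblast markers were lower. Pparg, the master regulator of adipocytes, was at 52.0 ± 2.5 FPKM (SD, n = 3) in ctrl, 22.4 ± 5.55 in Cre, 60.0 ± 3.34 in Cre + NFIA and 9.02 ± 2.52 in Cre + NFIA Δpro#3. The part of these marker differences in those of the members was not tested. Leukocytes also make several of these proteins in tissue. Of 14 macrophage markers 5 were tested, with sums of the list between 7.68 and 23.7 FPKM, and these 5 reached 8.62 FPKM (Cd14), 8.23 (Cd68), 5.71 (Lyz2), 3.64 (Csf1r) and 2.38 (Fcer1g) in the highest library. In contrast, Adgre1, C1qa, C1qb, C1qc and Tyrobp were at 0 reads in the 24 libraries while Ptprc, the pan-leukocyte marker, had at most 1 read. Macrophage sums were 13.6 to 15.1 FPKM in Cre + NFIA Δpro#3 and 10.4 to 12.1 in Cre at day 7, against 8.15 to 8.98 in ctrl and 7.68 to 8.93 in Cre + NFIA. Of the 5 tested, 4 were higher and 1 lower in Cre + NFIA Δpro#3 than in Cre + NFIA, where 40.4% of all genes tested were higher and 28.9% lower. The part of these macrophage markers in the differences of the members was not tested. None of 8 lymphocyte markers passed the filter, and their sum was at most 0.184 FPKM. Of 8 endothelial markers 3 were tested, with sums of the list between 3.55 and 11.8 FPKM. In its highest library Tek reached 7.34 FPKM, Kdr 3.73 and Egfl7 2.54, while Tie1 was at 0 and Cdh5 at 3 reads or fewer. Of 6 mesothelial markers, Krt19 alone was tested, with sums of 1.22 to 8.78 FPKM.

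At day 0 the members differed in both directions between cell types. Libraries labelled Cre differed from ctrl in Ccl5 (0.32), Ccl2 (0.25) and Csf1 (0.25), which were higher, and Cxcl12 (-0.22), which was lower, where 1.63% of genes tested were higher and 1.70% lower (0.973% and 1.63% with quantile normalization, 1.09% and 1.72% when scaled by median-of-ratios factors). These calls were weak. They went from 4 to 0 without Cre day 0 replicate 2, and to 2 without ctrl replicate 1, 2 or 3 or without Cre replicate 3. The Ccl2 call was lost with each of the 12 day 0 libraries left out in turn, and its difference was then 0.21 to 0.29.

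In Cre + NFIA against Cre at day 0, Ccl5 and Lif were higher and Ccl2, Ccl7 and Cxcl12 lower. Among all genes tested, 14.7% were higher and 12.9% lower (13.2% and 13.9% when scaled by median-of-ratios factors). Ccl2 was at 1217, 1181 and 1210 FPKM against 1782, 1884 and 1686, a difference of -0.57 ± 0.06 (adjusted p = 4.5e-05). Ccl5 was at 199, 199 and 208 FPKM against 153, 158 and 171, a difference of 0.33 ± 0.06 (adjusted p = 0.0021). Lif was at 4.37, 3.88 and 4.43 FPKM against 2.02, 2.5 and 3.49, a difference of 0.53 ± 0.13 (adjusted p = 0.010). Ccl5 and Lif were thus above the libraries labelled Cre at day 0 and below them at day 7. Cxcl12, at 164, 156 and 160 FPKM against 218, 203 and 219, differed by -0.41 ± 0.04 (adjusted p = 3.4e-05), and Ccl7 by -0.32. Against ctrl, 3 members were higher in Cre + NFIA, Lif (0.88), Ccl5 (0.65) and Csf1 (0.37), and 3 lower, Cxcl12 (-0.63), Cxcl5 (-0.51) and Ccl2 (-0.32). There 18.8% of genes tested were higher and 14.3% lower (16% and 16.4% with quantile normalization).

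In Cre + NFIA Δpro#3 against Cre at day 0, Cxcl5 (0.43), Cxcl1 (0.25) and Ccl5 (0.21) were higher and Cxcl12 (-0.41) and Csf1 (-0.30) lower. The share of all genes tested was 9.26% higher and 9.02% lower (8.41% and 9.19% when scaled by median-of-ratios factors). Without Cre + NFIA Δpro#3 replicate 1 the count of members called went from 5 to 3, with Cxcl1 at 0.18 and Ccl5 at 0.19 no longer called. Cxcl1 was also lost without Cre replicate 1, at 0.21, and Ccl5 without Cre replicate 1, at 0.18, or 2, at 0.20, or without Cre + NFIA Δpro#3 replicate 3, at 0.18. Cxcl12 was at 162, 159 and 162 FPKM with Δpro#3 and overlapped Cre + NFIA (0.01 ± 0.04, adjusted p = 0.95), so both transgenes had it below Cre before differentiation. Between the transgenes Ccl2 (0.56), Ccl7 (0.47), Cxcl5 (0.65) and Cxcl1 (0.34) were higher with Δpro#3 and Csf1 (-0.42) lower, where 4.50% of genes tested were higher and 5.59% lower. Csf1 at 393, 391 and 383 FPKM was below Cre + NFIA, at 544, 518 and 498, the opposite order to day 7.

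**Figure D5:**
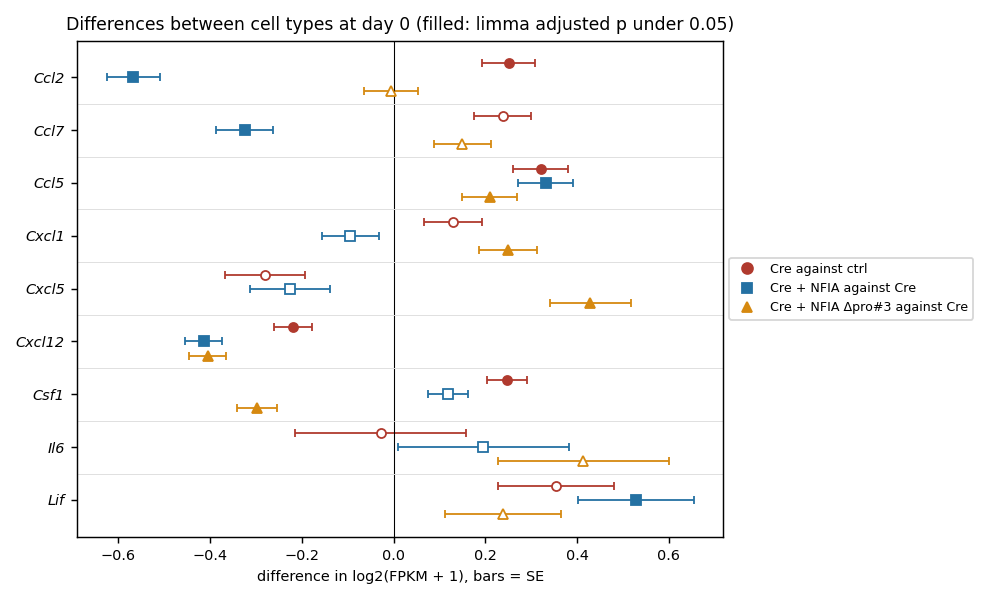
Differences in log2(FPKM + 1) at day 0 for the 9 tested members, with the limma SE as bars and filled symbols for an adjusted p under 0.05. The differences lie between -0.57 (Ccl2, Cre + NFIA against Cre) and 0.53 (Lif, Cre + NFIA against Cre), and they point in both directions.

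Whether a cell-type difference changed from day 0 to day 7 was tested as an interaction. The Cre-against-ctrl difference was more positive at day 7 for 6 members and more negative for none, where 29.7% of genes tested were higher and 19.5% lower (22.4% and 26.0% when scaled by median-of-ratios factors). That of Cxcl12 went from -0.22 (called) at day 0 to 0.16 (not called) at day 7. The difference of Cre + NFIA from Cre was more negative at day 7 for the 9 tested members, where 30.1% of genes were lower and 18.8% higher (23.1% and 25.0% when scaled by median-of-ratios factors), with Ccl7 and Csf1 both at -1.71. The difference of Cre + NFIA Δpro#3 from Cre was more positive at day 7 for Cxcl5, Cxcl12 and Csf1 and more negative for none, where 7.79% of genes were higher and 10.4% lower (10.2% and 8.90% with quantile normalization). For Cxcl5 it went from 0.43 to 1.21, both called. For Cxcl12 it went from -0.41 to 0.22 and for Csf1 from -0.30 to 0.13, called at day 0 and not at day 7.

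In order of mean level, day 0 groups stood above day 7 groups for Ccl2, Ccl7, Ccl5, Cxcl1, Cxcl5, Cxcl12, Csf1 and Il6. Within day 7 the order for Ccl2, Ccl7, Cxcl1, Cxcl5, Cxcl12, Csf1, Il6 and Lif was Cre + NFIA Δpro#3, Cre, ctrl and Cre + NFIA. Cre and ctrl overlapped for Cxcl1, Cxcl5, Cxcl12 and Lif, and for Il6 Cre overlapped Cre + NFIA Δpro#3 and ctrl overlapped Cre + NFIA. Ccl5 alone had Cre + NFIA above ctrl. For Csf1, the 4 groups ctrl and Δpro#3 at day 0 and Δpro#3 and Cre at day 7 formed a run in which neighbours overlapped at each step. Levels of different members are compared here per kilobase of gene length.

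Other genes of the same families were counted from fixed lists. Of 30 other chemokine genes, 12 were tested, and 5 were higher in Cre than in ctrl at day 7 and none lower, 6 were lower in Cre + NFIA than in Cre, and 1 was higher and 2 lower in Cre + NFIA Δpro#3 than in Cre. The 5 and the 6 of 12 stand beside 36.1% of all genes higher and 35.9% lower in the same comparisons. The largest differences in Cre + NFIA against Cre were those of Cx3cl1, a membrane-tethered chemokine (-1.52 ± 0.08, adjusted p = 2.6e-08), Cxcl10, an interferon-induced T-cell chemokine (-1.32 ± 0.08, adjusted p = 9.4e-08) and Ccl8, a monocyte chemokine (-1.0 ± 0.15, adjusted p = 0.00011). Of the neighbours of the members in the same clusters, Ccl8, which lies 77.7 kb from Ccl2, was the highest, at up to 49.0 FPKM and 320 reads. Ccl1, Ccl12, Cxcl3, Cxcl15, Pf4 and Ppbp stayed under 1 FPKM in each library, Cxcl2, which lies 10.8 kb from Cxcl1, reached 1.79 FPKM and Ccl11, which lies 10.3 kb from Ccl7, reached 4.17, while Cxcl1 reached 346 FPKM and Ccl7 1060.

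Of the chemokine receptors, Ackr3 was clearly expressed. Ccr2 had no read in the 24 libraries, and a count of 0 allows up to 3 reads, which is 0.205 to 0.388 reads per M of the library. Cxcr2 had at most 3 reads, Ackr2, a scavenger of CC chemokines, at most 2 and Cxcr4 at most 22. Of 23 chemokine receptor genes 2 were tested. One of them was Ackr3, the scavenging receptor of Cxcl12, at 35.9 to 56.1 FPKM by group mean at day 0. At day 7 it was at 6.52 ± 0.81 FPKM (SD, n = 3) in ctrl, 15.4 ± 1.11 in Cre, 4.25 ± 0.25 in Cre + NFIA and 14.9 ± 1.90 in Cre + NFIA Δpro#3. It was higher in Cre than in ctrl by 1.13 and lower in Cre + NFIA than in Cre, at -1.65. Csf1r, the receptor of Csf1, was at most 3.64 FPKM.

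The receptor side of Il6 and Lif was well expressed. Il6st, the shared signalling chain, was at 47.6 to 84.3 FPKM by group mean at day 7, Il6ra at 6.96 to 18.1 and Lifr at 5.97 to 10.7. All 3 were higher in Cre than in ctrl (0.53 for Il6st, 0.79 for Il6ra and 0.70 for Lifr) and lower in Cre + NFIA than in Cre (-0.64, -0.28 and -0.70). Of 7 tested genes of the IL-6 family and its receptors, 5 were higher and 1 lower (Cntfr, -0.86, named after its value was seen) in Cre than in ctrl, and 6 were lower in Cre + NFIA than in Cre, where 36.1% and 22.7% of all genes were higher and lower in the first comparison and 35.9% lower in the other. The largest differences in the latter were those of Clcf1, a ligand of the family (-1.70 ± 0.13, adjusted p = 5.3e-07), and Osmr, the oncostatin M receptor (-1.22 ± 0.13, adjusted p = 5.2e-06). Of 12 other cytokines tested, 7 were higher in Cre than in ctrl and 7 lower in Cre + NFIA than in Cre, beside the same 36.1% and 35.9% of all genes, with the largest differences in the latter for Il1rn (-1.57), the antagonist of the IL-1 receptor, Tgfb1 (-1.17) and Il18 (-1.15).

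Genes known to be induced by NF-κB and STAT3 went both ways. Of 16 tested NF-κB feedback and target genes, 7 were higher and 4 lower in Cre than in ctrl at day 7, and 4 were higher and 11 lower in Cre + NFIA than in Cre. Over all genes tested, 36.1% were higher and 22.7% lower in the first comparison and 27.0% and 35.9% in the second, so the counts in the first lie near those shares. The 2 comparisons share the libraries labelled Cre, and the next genes were named after their values were seen. Their differences in the 2 comparisons, in that order, are given for Tnfaip3 (-0.43 and 0.25), Tnip1 (-0.50 and 0.42) and Zc3h12a (-0.58 and 0.36), which restrain NF-κB signalling or degrade cytokine mRNAs, and Sod2 (-1.08 and 1.19). Bcl3 and Birc3 of the same list went the other way by group mean at day 7. Bcl3 was at 3.87 FPKM in ctrl, 5.62 in Cre and 3.31 in Cre + NFIA, and Birc3 at 4.49, 5.39 and 3.92. For Birc3 the libraries of ctrl (3.63 to 4.99 FPKM) and Cre (4.93 to 5.67) overlapped. The subunit genes Nfkb1 (0.50 and -0.56), Nfkb2 (0.47 and -0.72) and Rela (0.37 and -0.37) had the signs of Ccl2 (1.62 and -1.99). In the latter comparison Vcam1, an adhesion molecule, differed by -1.73 ± 0.10 (adjusted p = 7.7e-08) and Ptgs2, a prostaglandin synthase, by -1.61 ± 0.13 (adjusted p = 6.7e-07), whereas Sod2, the mitochondrial superoxide dismutase, differed by 1.19 ± 0.11 (adjusted p = 2.6e-06). Of 13 STAT3 feedback and target genes, 6 were higher and 3 lower in Cre than in ctrl, and 2 were higher and 7 lower in Cre + NFIA than in Cre, to be read against the same shares. Junb, a subunit of AP-1, differed by -1.11, while the acute-phase genes Hp and Saa3 differed by 1.85 and 0.98. Hp was at 296 ± 34.1 FPKM (SD, n = 3) in ctrl, 101 ± 35.7 in Cre, 351 ± 8.46 in Cre + NFIA and 24.7 ± 10.7 in Cre + NFIA Δpro#3. It thus stood lowest where Ccl2 and Il6 stood highest. Pparg at day 7 had the same order of groups as Hp, at 52.0, 22.4, 60.0 and 9.02 FPKM, and the cause was not tested. In Cre + NFIA Δpro#3 against Cre, 1 NF-κB gene was higher and 2 lower, and 5 STAT3 genes were higher and 2 lower, where 7.70% of all genes were higher and 10.0% lower.

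Across the 24 libraries, the gene most like each member was found by Pearson's r of log2(FPKM + 1). The libraries fall into 2 days, and r over all of them is mostly the difference between days, so r over the 12 libraries of day 7 is given beside it, as a description. The gene nearest to Cxcl1 was Nfkbiz, an IκB-family cofactor of NF-κB (r = 0.998, and 0.971 within day 7), followed by Sbno2 and Ctps. Ctps was nearest to Cxcl5 (0.996 and 0.925), followed by Nfkbiz and Epha1. The gene nearest to Ccl2 was Nfkb1, an NF-κB subunit (0.994 and 0.981), followed by C1ra and C1qtnf6, and those nearest to Ccl7 were P4hb (0.994 and 0.991), Zyx and Vdr. Ccl5 was nearest to Tiam1 (0.991 and 0.956), Socs3 and Tapbp, Cxcl12 to Serping1 (0.987 and 0.911), Ddx58 and Fam3c, and Csf1 to Atp8b2 (0.991 and 0.995), Znrf1 and Clstn1. Il6 was nearest to Usp12 (0.979 and 0.922), Slc39a14 and Ifnar2, but within day 0 its r with Usp12 was -0.116. For the other tested members, r with the nearest gene within day 0 was 0.767 (Ccl7) to 0.971 (Cxcl12). Among their further named genes it went down to 0.482, for Cxcl5 with Nfkbiz, and was 0.490 for Cxcl1 with Ctps. Lif stood apart from the other members, with Dusp1 as its nearest gene at 0.925 (0.867 within day 7), then Itga3 and Iqgap3.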

How the data were processed

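RNA-seq was measured in 24 libraries. The authors aligned stranded mRNA reads to mm9 with STAR 2.5.3a, kept unique reads, counted them by gene on the matching strand and deposited FPKM values. The files also hold the gene length, which was used to recover reads, and the authors' FPKM values were whole multiples of 1 read, within 0.05 of a read, in each library. Totals were 7.73 to 14.62 M reads. Limits of 3 reads cover counting error only, since reads carry no molecular identifiers.

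Values were taken as log2(FPKM + 1), and genes at 1 FPKM or more in at least 3 libraries were tested (12640 of 24825), with 9 of the 10 members among them. The pseudocount makes differences of low genes smaller. The limma package (version 3.58.1, R 4.3.3) fitted linear models with a mean-variance trend over all genes tested, on the 12 libraries of a day for comparisons within it and on all 24 for comparisons between days and interactions. A gene was called at a two-sided Benjamini-Hochberg adjusted p under 0.05, and the 3-fold threshold of the study was counted beside it. Ratios were compared by exact permutation tests in scipy 1.17.1. The code was tested on simulated data.

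The members and the lists were chosen with earlier results of these data known. Genes named beside the members were the 3 called genes with the largest difference per list in Cre + NFIA against Cre at day 7, receptors of the members (not every result is reported here), the 3 genes nearest in pattern per member, and genes of the same clusters. Tnfaip3, Tnip1, Zc3h12a, Bcl3, Birc3, Nfkb2, Rela and Cntfr were named outside these rules, after their values were seen. Nothing states that replicates came from separate cultures, so p-values measure the spread between these samples, which may be technical. Alternatives were other pseudocounts, filters, scalings, models and thresholds, and leaving out each library.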

Additional observations from a re-analysis of the deposited data

Results flagged for a closer look

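These results were singled out because a difference between cell types changed between day 0 and day 7 in a test of that change itself (limma interaction over the 24 libraries, Benjamini-Hochberg adjusted p under 0.05). Values are day 7 minus day 0 on the log2(FPKM + 1) scale. For Cre against ctrl they were 1.37 for Ccl2 (SE 0.12, adjusted p = 4.5e-08), 1.34 for Ccl7, 1.02 for Csf1, 0.66 for Il6, 0.41 for Ccl5 and 0.38 for Cxcl12, whose difference went from -0.22 to 0.16 (not called at day 7). That of Il6 (adjusted p = 0.049) was lost with any of 14 libraries left out, when it was 0.53 to 0.70, and rests on day 7 libraries with at most 18 reads in Cre and 7 in ctrl.

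For Cre + NFIA against Cre they were -1.71 for Csf1 (SE 0.08, adjusted p = 4.3e-12), -1.71 for Ccl7, -1.42 for Ccl2, -1.05 for Lif, -0.87 for Cxcl1, -0.87 for Il6, -0.72 for Ccl5, -0.50 for Cxcl5 and -0.40 for Cxcl12. Ccl5 and Lif were higher than in Cre at day 0 (0.33 and 0.53) and lower at day 7 (-0.39 and -0.52). The call of Cxcl5 (adjusted p = 0.028) was lost without Cre day 0 replicate 2 (-0.42), Cre + NFIA day 0 replicate 1 (-0.44) or 3 (-0.48), Cre day 7 replicate 2 (-0.36) or Cre + NFIA day 7 replicate 2 (-0.39).

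For Cre + NFIA Δpro#3 against Cre they were 0.78 for Cxcl5 (SE 0.18, adjusted p = 0.0047), 0.63 for Cxcl12 and 0.42 for Csf1. The differences of the latter 2 went from -0.41 to 0.22 and from -0.30 to 0.13, called at day 0 and not called at day 7. Marker sums of adipocytes and precursors differed between the cell types at day 7 far more than at day 0, and their part in these values was not tested.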

How the results depend on the processing

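Of the comparisons of single members under the alternatives, 5118 kept direction and side of the threshold, 98 lost the call, 32 gained it and 27 turned in sign, and none of those that turned was called. With at least 3-fold also required, the members called at day 7 went from 5 to 1 in Cre against ctrl, 9 to 3 in Cre + NFIA against Cre, 3 to 0 in Cre + NFIA Δpro#3 against Cre, 9 to 4 between the transgenes and 8 to 0 in Cre + NFIA against ctrl, to 0 in each of the 5 comparisons at day 0, from 8 to 4 over time in Cre + NFIA Δpro#3, and from 6 to 0, 9 to 2 and 3 to 0 in the interactions of Cre, Cre + NFIA and Cre + NFIA Δpro#3. At an adjusted p under 0.01 they went from 8 to 5 in Cre + NFIA against ctrl at day 7, 4 to 0 in Cre against ctrl at day 0 and 5 to 3 in Cre + NFIA Δpro#3 against Cre at day 0. These last 2 counts were 2 and 3 with no filter, 1 and 3 with quantile normalization, 0 and 3 with only the groups compared in the fit, and 0 to 4 and 3 to 6 with 1 library left out. With all 24 libraries in the fit, Cre against ctrl at day 0 had 2 and Cre + NFIA Δpro#3 against Cre at day 7 had 6. Quantile normalization gave 5 in the Cre + NFIA Δpro#3 interaction. The causes were not tested.

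Signs turned for values near 0: Lif in the Cre + NFIA Δpro#3 interaction with a pseudocount of 5 (-0.0056), Cxcl5 in Cre against ctrl at day 7 with median-of-ratios scaling (-0.083) or quantile normalization (-0.10), Cxcl1 in the Cre interaction with median-of-ratios scaling (-0.046), and with quantile normalization Ccl7 in Cre + NFIA Δpro#3 against Cre at day 0 (-0.017), Cxcl12 between the transgenes at day 0 (-0.079), Cxcl1 in Cre + NFIA against ctrl at day 0 (-0.031) and Csf1 over time in Cre + NFIA Δpro#3 (0.16). With 1 library left out, the ranges that crossed 0 were -0.15 to 0.094 for Il6 in Cre against ctrl at day 0, -0.046 to 0.034 for Ccl2 in Cre + NFIA Δpro#3 against Cre at day 0, -0.0112 to 0.025 for Cxcl12 between the transgenes at day 0, -0.0030 to 0.34 for Il6 in Cre + NFIA against ctrl at day 0, -0.11 to 0.16 for Cxcl5 in Cre against ctrl at day 7, -0.17 to 0.13 for Il6 in Cre + NFIA against ctrl at day 7, -0.020 to 0.18 for Cxcl1 in the Cre interaction, -0.14 to 0.14 for Lif and -0.051 to 0.14 for Cxcl1 in the Cre + NFIA Δpro#3 interaction, and -0.039 to 0.0038 for Csf1 over time in Cre + NFIA Δpro#3.

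Nothing states whether replicate numbers pair the libraries. In no comparison was the correlation of deviations from the group means above 0.1 in every same-numbered pair, and the mean ran from -0.159 to 0.056. Single pairs reached 0.201 (Cre against ctrl at day 7), and with 3 pairs this check cannot exclude a shared source. With the replicate block, the members called went from 3 to 4 in Cre + NFIA Δpro#3 against Cre at day 7, from 5 to 6 in Cre + NFIA against Cre at day 0 and from 6 to 5 in the Cre interaction. It stayed at 4 in Cre against ctrl at day 0, where Cxcl5 took the place of Ccl2, and the other counts were as without it. Depth limits Il6 at day 7, with 31 reads or fewer per library, and Cxcl14.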
